A study of Mus musculus with 4 samples.

Results

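The genes described here encode cytochrome P450 enzymes and soluble or kappa-class glutathione transferases, as measured in the hearts of mice with and without Mef2a, a MADS-box transcription factor gene of striated muscle. Genes were chosen by name alone: a mouse symbol made of Cyp, a family number, a subfamily letter and a gene number, or of Gst and a class letter from a, k, m, o, p, t or z followed by a number. The rule was met by 106 of the 18781 named genes, 86 P450 genes and 20 glutathione transferase genes, each with 1 probe set. The rule passes over Cyp51, the microsomal transferases (Mgst1, Mgst2 and Mgst3) and P450 names that end in a letter, such as Cyp4a12a. It also passes over P450 genes with other names, such as Ptgis and Tbxas1.

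Atria and ventricles were dissected from hearts of Mef2a+/+ mice (wild type) and Mef2a-/- mice (knockout), all 2 months old, and total RNA was hybridised to arrays. There were 4 groups, wild type atria, knockout atria, wild type ventricles and knockout ventricles. Each was measured on 1 array carrying RNA pooled in equal molar amounts from 7 mice, and mice of both sexes were used. Strain and the part of Mef2a that was deleted are not given in the sources used here. With 1 array per group there was no replicate spread, so no difference has a test and all values describe these pools. In whole tissue, fewer cells of a type and less RNA per cell cannot be told apart.

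Cytochrome P450s are haem enzymes that insert an oxygen atom from molecular oxygen into lipids, steroids, vitamins and foreign compounds, using electrons passed on by a reductase or a ferredoxin. Members of the CYP1, CYP2 and CYP3 families handle many drugs and pollutants, and some of them also convert arachidonic acid to epoxides that act on blood vessels and heart muscle, while CYP4 enzymes hydroxylate fatty acids near the chain end. Glutathione transferases join the tripeptide glutathione to reactive electrophiles, among them products of lipid peroxidation, and so follow the P450s in detoxification. Most enzymes of both groups are best known from liver, with a smaller set in heart.

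Values are log2 intensities. The median of all values in the table, 5.71, is called the floor. It is not a detection limit, and values below it lie in the dimmer part of the table, where such arrays compress differences. A difference counted as called when it reached 1.5-fold between genotypes or 2-fold between chambers and the brighter array of the pair reached the floor. Levels of different genes come from different probes and are not ranked against each other here. Probes of close relatives such as the mu-class transferases or the Cyp2j genes may also bind each other's transcripts.

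Across the arrays the median value lay between 5.66 and 5.75, and the interquartile range between 2.97 (knockout atria) and 3.21 (wild type atria). The signal of Mef2a ran from 10.28 (wild type ventricles) to 10.41 (knockout atria). It was no lower on the arrays labelled knockout and does not check the genotype labels. Every direction between genotypes rests on those labels. The chamber labels were matched by their markers: in both genotypes 6 of 6 atrial cardiomyocyte genes were called for atria and 4 of 4 ventricular ones for ventricles, with a minimum of 2-fold.

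Of the 106 genes, 29 reached the floor on at least 1 array (27.4%), against 55.0% of all named genes. The families parted here. Of the P450 genes 15 of 86 reached it (17.4%), and of the glutathione transferase genes 14 of 20 (70.0%). By array, 27 of the 106 reached it in wild type atria, 25 in knockout atria, 22 in wild type ventricles and 23 in knockout ventricles. Of the 29, 20 did so on all 4 arrays and 3 on a single array: Cyp2e1 and Cyp2j6 in wild type atria, and Cyp2s1 in knockout atria.

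**Figure D1:**
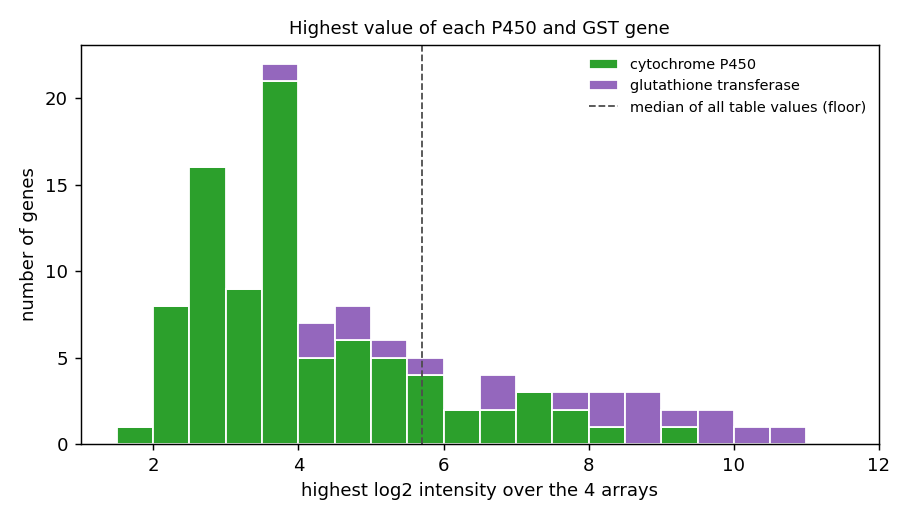
Number of genes (vertical axis) by the highest log2 intensity each reached over the 4 arrays (horizontal axis, bins 0.5 wide), with P450 genes in green stacked under glutathione transferase genes in purple and the floor of 5.71 dashed. Most P450 genes lie left of the floor, where 71 of 86 fall, while 14 of the 20 glutathione transferase genes lie right of it.

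Among P450 genes by role, 7 of 54 drug and xenobiotic genes reached the floor, 4 of 15 fatty acid hydroxylase genes, 3 of 8 genes of vitamin D, retinoid and side-chain sterol oxidation, and 1 of 6 in the group of steroid hormone families, which was the orphan gene Cyp20a1. The rule found 3 genes of families 5, 7 and 8 (Cyp7a1, Cyp7b1 and Cyp8b1), which act in bile acid synthesis. None of them reached the floor, while Cyp27a1 and Cyp39a1 of the same pathway did. The prostacyclin and thromboxane synthase genes Ptgis and Tbxas1 also encode P450s of these families, under names outside the rule. Ptgis was above the floor on every array and Tbxas1 on none. Typical liver drug enzymes such as Cyp1a2 and Cyp3a11, and the adrenal steroid enzymes Cyp11b1 and Cyp21a1, were below it on every array. Of the transferase classes, 5 of 7 mu, 3 of 4 theta, 2 of 3 alpha, 1 of 2 omega, 1 of 2 pi, and the sole kappa and zeta genes reached it. The genes just inside were Cyp2s1 (highest value 5.71), Cyp2j6 (5.78) and Gstt3 (5.79), and those just outside were Cyp2d40 (5.49), Cyp46a1 (5.28) and Gstm6 (5.20).

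The sequences before the transcription start are printed for Cyp2e1, which had the largest genotype ratio of the set, and for 4 of the 5 genes called the same way between chambers in both genotypes, because these are the genes the results turn on. The other is Cyp2d22. They were chosen after the values were seen. Each is the 250 bases upstream of a start in the RefSeq promoter table of assembly GRCm38.p6, printed 5′ to 3′ on the gene's strand. The build behind the array is not given in the sources used here. Of the 29 genes 24 had an entry in that table. Capitals mark matches to the motifs searched. Cyp2e1 lies at chr7:140763569-140763818 on the plus strand, Gstt1 at chr10:75797732-75797981 on the minus strand, Cyp1b1 at chr17:79715062-79715311 on the minus strand, Gsto1 at chr19:47854723-47854972 on the plus strand and Cyp4b1 at chr4:115647722-115647971 on the minus strand.
Cyp2e1: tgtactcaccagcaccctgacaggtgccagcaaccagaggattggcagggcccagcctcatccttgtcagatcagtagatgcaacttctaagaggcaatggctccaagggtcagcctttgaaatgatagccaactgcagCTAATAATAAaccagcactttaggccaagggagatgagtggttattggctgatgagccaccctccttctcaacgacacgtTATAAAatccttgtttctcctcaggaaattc
Gstt1: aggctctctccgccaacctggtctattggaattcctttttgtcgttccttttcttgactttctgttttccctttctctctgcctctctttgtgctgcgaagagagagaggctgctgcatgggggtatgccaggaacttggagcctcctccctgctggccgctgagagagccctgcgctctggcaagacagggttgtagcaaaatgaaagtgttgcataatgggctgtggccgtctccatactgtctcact
Cyp1b1: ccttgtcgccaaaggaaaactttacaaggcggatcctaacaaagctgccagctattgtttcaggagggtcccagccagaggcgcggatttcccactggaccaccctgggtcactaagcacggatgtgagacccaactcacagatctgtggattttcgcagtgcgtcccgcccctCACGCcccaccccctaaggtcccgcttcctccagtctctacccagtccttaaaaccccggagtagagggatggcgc
Gsto1: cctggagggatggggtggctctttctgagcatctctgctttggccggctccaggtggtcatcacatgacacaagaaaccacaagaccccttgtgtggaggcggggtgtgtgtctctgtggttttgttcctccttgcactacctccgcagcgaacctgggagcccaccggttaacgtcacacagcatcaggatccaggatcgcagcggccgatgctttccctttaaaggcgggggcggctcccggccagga
Cyp4b1: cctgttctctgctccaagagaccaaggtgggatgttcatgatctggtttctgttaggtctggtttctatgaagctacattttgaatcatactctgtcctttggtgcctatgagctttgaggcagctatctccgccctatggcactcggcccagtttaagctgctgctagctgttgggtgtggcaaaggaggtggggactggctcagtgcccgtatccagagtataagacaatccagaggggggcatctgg

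The motifs were searched on both strands: the core bound by the aryl hydrocarbon receptor (GCGTG), an antioxidant response element (TGACNNNGC), the TATA box (TATAAA) and the MEF2 box, the AT-rich element bound by MEF2 proteins. In the upstream windows of the table, 32851 in all, they occurred in 28.2%, 10.2%, 12.4% and 2.92% respectively. A gene was counted if any of its windows matched, so counts of genes and these shares of windows are unlike units. Of the 24 genes with an entry, 8 held the receptor core, 3 the antioxidant element (Gsta3, Gstm5 and Gstm7), 4 the TATA box and 1 the MEF2 box. That 1 gene was Cyp2e1, with a MEF2 box match at positions −111 to −102 and a TATA box match at −31 to −26, counted from the start. Cyp1b1, a textbook target of the aryl hydrocarbon receptor, held the core in reverse at −76 to −72. Gstt1, Gsto1 and Cyp4b1 held 0 matches to the 4 motifs in these windows. No matches overlapped in the 5 printed sequences. A match describes the letters only and shows no binding.

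**Figure D2:**
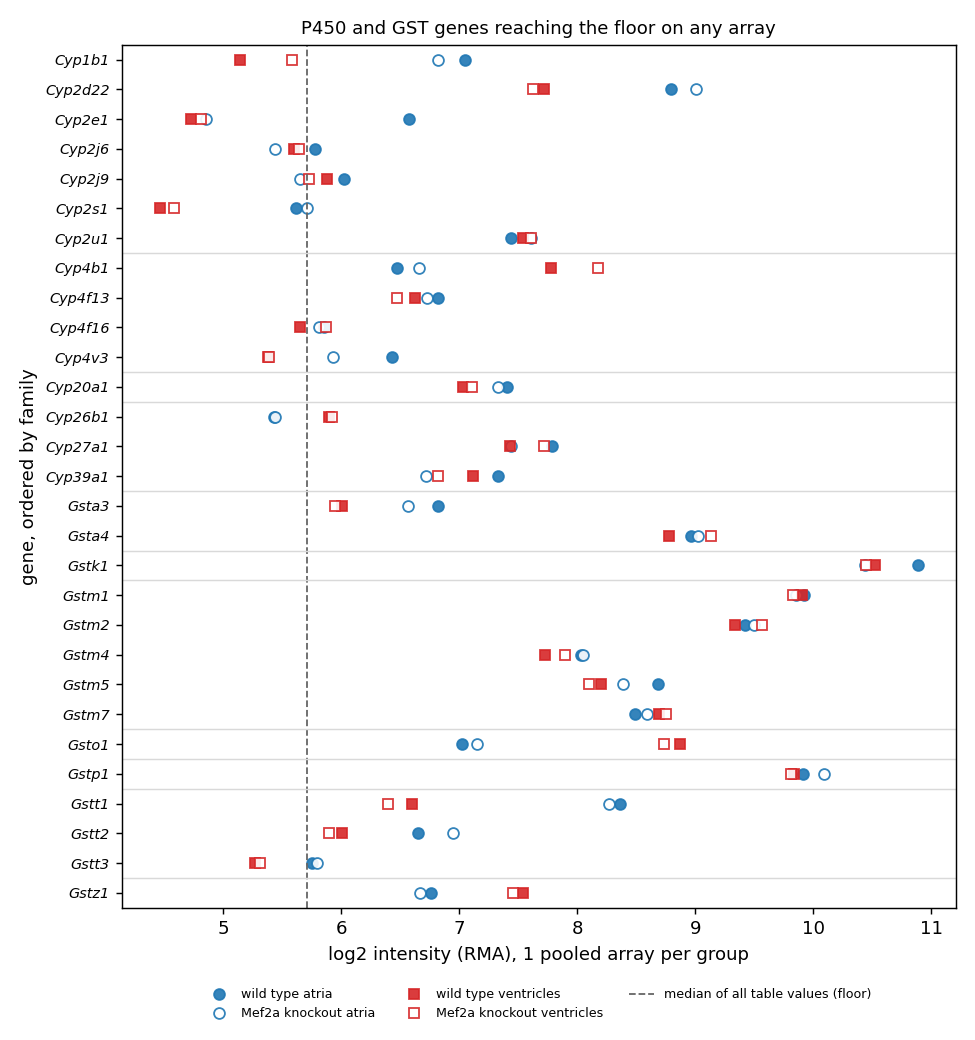
Log2 intensity (horizontal axis) of the 29 genes that reached the floor (dashed, 5.71), 1 row per gene ordered by family, with circles for atria, squares for ventricles, filled symbols for wild type and open symbols for Mef2a knockout. Each symbol is 1 pooled array. For Cyp2e1 the wild type atria array (6.57) stands apart from the other 3 (4.73 to 4.86), and for Gstt1, Gsto1 and Cyp4b1 circles and squares are set apart in both genotypes.

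Between the atrial pools, knockout and wild type were compared first. Of 28 genes with an array at the floor, 2 were at least 1.5-fold lower, Cyp2e1 and Cyp39a1, and 0 were at least 1.5-fold higher. Over all genes tested the share called was 3.03%, with 2.01% lower and 1.02% higher. The median log2 ratio (knockout minus wild type) of the 28 was −0.07, beside −0.03 over the 10050 genes tested, and 12 were positive and 16 negative.

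Cyp2e1 encodes a liver and fat enzyme that oxidises ethanol, acetone and small toxicants. Its log2 intensity was 6.57 in wild type atria, 4.86 in knockout atria, 4.73 in wild type ventricles and 4.81 in knockout ventricles. The wild type atria array alone was above the floor, and the other 3 lay close together. The atrial log2 ratio was −1.72, or 3.29-fold lower in the knockout, and the ventricular log2 ratio was 0.08 between arrays that were both below the floor. The call therefore rests on the wild type atria array. It was not made when both arrays had to reach the floor or the floor was set at the 75th percentile of all values.

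Adipocyte markers were read beside it. Of 8 listed genes 7 had a named probe set and 3 reached the floor. Their mean log2 intensity was 5.75 in wild type atria, 5.24 in knockout atria, 5.37 in wild type ventricles and 5.39 in knockout ventricles, and their summed intensity on the log2 scale was 9.12, 8.53, 8.75 and 8.90. Retn, which encodes resistin, had its highest value on the same array as Cyp2e1, with 5.73 in wild type atria, 4.66 in knockout atria, 4.89 in wild type ventricles and 4.76 in knockout ventricles. Car3, the muscle and fat carbonic anhydrase gene, had 7.58, 5.50, 5.74 and 6.48 in the same order. The hormone-sensitive lipase gene Lipe, the third to reach the floor, had 7.53, 7.46, 7.85 and 7.99 and so was close between the atrial pools. The defining adipocyte genes Adipoq (4.53, 3.80, 4.07 and 3.96), Plin1, Lep and Cidec were below the floor on all 4 arrays. The atrial log2 ratio was −0.73 for Adipoq, and 0.04, 0.20 and 0.12 for Plin1, Lep and Cidec. Of 8 hepatocyte markers 2 reached the floor, with log2 summed values of 8.89, 9.29, 7.38 and 7.42. Alb was below it on every array, and the fetuin gene Ahsg was above it in atria (8.33 in wild type and 8.79 in knockout). The part of these cells in the Cyp2e1 difference was not tested.

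The genes with the pattern nearest to that of Cyp2e1 among the 29 were Cyp4v3, Gsta3 and Gstm5. Likeness was the root mean square difference of log2 values over the 4 arrays, after each gene's mean was taken off, and it came to 0.437, 0.535 and 0.579. All 3 had their highest value in wild type atria, which a choice by likeness to Cyp2e1 favours. Others of the 29, such as Cyp39a1 and Gstk1, also had their highest value there. Gsta3 kept a chamber log2 ratio of 0.62 in knockout hearts, where Cyp2e1 had 0.05.

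Cyp39a1 encodes an oxysterol hydroxylase of bile acid synthesis. It stood at 7.33 in wild type atria, 6.72 in knockout atria, 7.12 in wild type ventricles and 6.82 in knockout ventricles, above the floor throughout. Both knockout arrays were lower than both wild type arrays. The log2 ratio was −0.61 in atria (1.53-fold lower), just past the 1.5-fold line, and −0.30 in ventricles, short of it. Under quantile normalization and lowess centring the atrial ratio was −0.56 for both and was no longer past the line.

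The remaining P450 genes with an atrial array at the floor differed by less than 1.5-fold in atria. Of 14 P450 genes tested, 10 were negative and 4 positive, with a median of −0.16 that kept its sign under the 3 other scalings. Over all genes tested in atria 43.1% were positive, with a median of −0.03. Below Cyp39a1 in size came Cyp4v3, a fatty acid hydroxylase gene related to the human gene of Bietti crystalline dystrophy, at −0.51, from 6.43 in wild type to 5.93 in knockout atria. Of the Cyp2j genes, Cyp2j9 was at −0.37 and Cyp2j6 at −0.34. Cyp27a1, the mitochondrial sterol 27-hydroxylase gene, was at −0.34. Positive were Cyp2d22 (0.21), Cyp4b1 (0.18), Cyp2u1 (0.17) and Cyp2s1 (0.09).

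Of 14 glutathione transferase genes tested in atria, 8 were positive and 6 negative, with a median of 0.03 that turned to −0.01 under median centring. Gstk1, the transferase of mitochondria and peroxisomes, was lowest at −0.44, with 10.89 in wild type and 10.44 in knockout atria and 10.53 and 10.45 in the ventricular pools. Thus the wild type atria array was again the high one. Gstm5 was at −0.30 and Gsta3 at −0.25, and Gstt2 was highest at 0.30. The mu genes Gstm1, Gstm2, Gstm4 and Gstm7 and the pi gene Gstp1, whose enzymes carry much of general conjugation, lay between −0.06 and 0.18.

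Fibroblast markers were also lower in the knockout atria pool. All 8 listed had negative atrial ratios, 3 of them past 1.5-fold, and their mean log2 intensity was 9.25 in wild type atria, 8.77 in knockout atria, 8.34 in wild type ventricles and 8.19 in knockout ventricles. Their summed intensity on the log2 scale was 13.08, 12.66, 12.31 and 12.20. The 3 were Pdgfra (−0.63), Dpt (−0.62) and Lum (−0.84). Of 7 smooth muscle and pericyte markers, Cnn1 was called lower (−1.29) and Acta2 higher (0.61) in knockout atria, and the log2 summed values were 11.14, 11.24, 11.94 and 11.98. Of 4 brown adipocyte markers 0 were called in atria and Cidea was called higher in knockout ventricles (0.62). The part of these markers in the lower P450 values in atria was not tested.

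The ventricular pools of the genotypes were compared in the same way. Of 23 genes with an array at the floor, 0 were called in either direction, beside 1.2% of all genes tested (0.515% higher and 0.69% lower). The log2 ratios ran from −0.30 (Cyp39a1) to 0.40 (Cyp4b1), with a median of −0.06, beside 0.00 over the 9712 genes tested. There were 10 positive and 13 negative values. P450 genes had a median of 0.05, with 6 positive and 4 negative. Transferase genes had a median of −0.08, with 4 positive and 9 negative, so the order of the atrial medians was reversed.

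Cyp4b1 encodes a fatty acid and xenobiotic hydroxylase known from lung and endothelium. It was at 7.78 in wild type and 8.17 in knockout ventricles, and at 6.48 and 6.66 in wild type and knockout atria. The knockout array was the higher in each chamber, by 0.40 and 0.18. Gsta4, the transferase that conjugates the lipid peroxidation product 4-hydroxynonenal, was next at 0.36, from 8.78 to 9.14 in ventricles. In atria it was at 0.06, with 8.96 in wild type and 9.03 in knockout. Cyp27a1 followed at 0.28 and Gstm2 at 0.23.

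The retinoic acid hydroxylase gene Cyp26b1 was at 5.89 and 5.92 in wild type and knockout ventricles, a ratio of 0.03, and at 5.43 on both atrial arrays. Cyp1b1 was at 0.44 in ventricles, but from 5.14 to 5.58 with both arrays below the floor. At the lower end, Gstt1 was at −0.20, Cyp4f13 and Cyp2j9 at −0.15 and Gsto1 at −0.13.

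**Figure D3:**
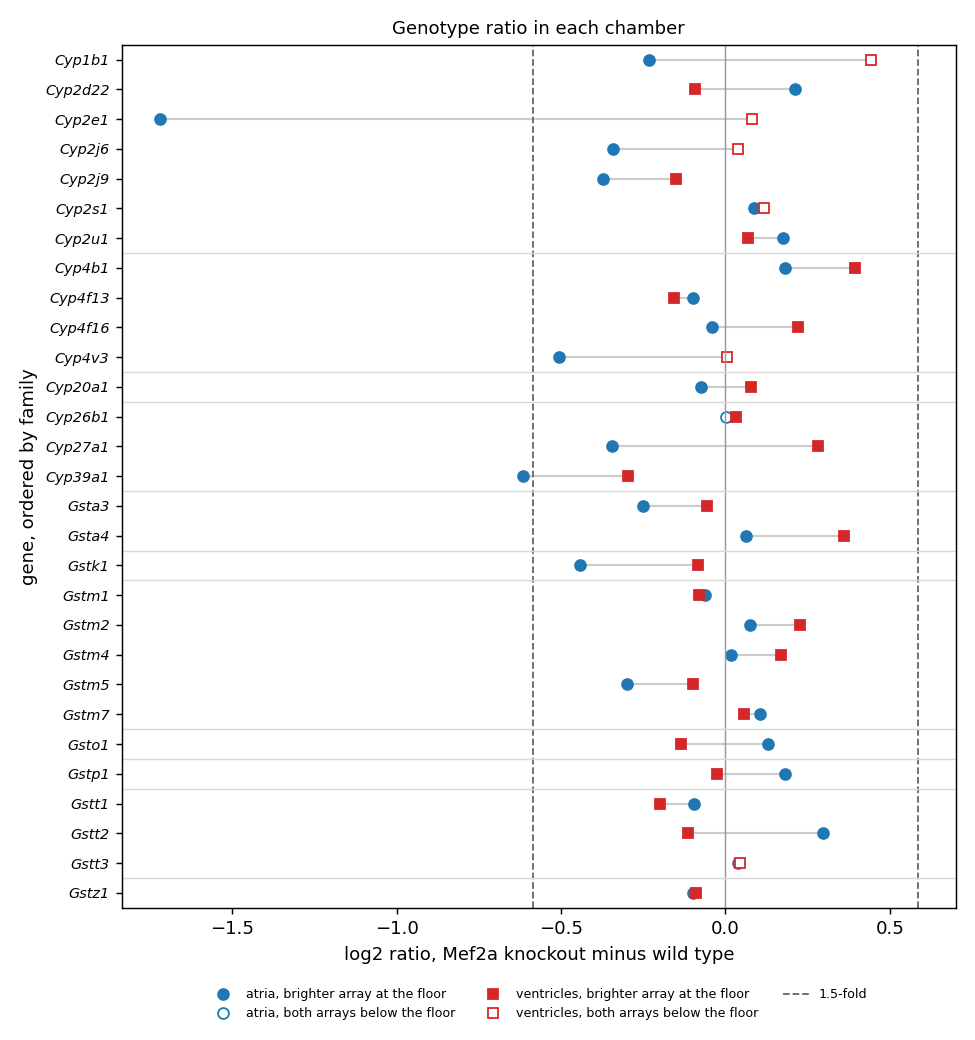
Log2 ratio of Mef2a knockout to wild type (horizontal axis) for the 29 genes, in atria (blue circles) and ventricles (red squares), joined by a grey line. Open symbols mark pairs with both arrays below the floor, and dashed lines mark 1.5-fold. Cyp2e1 at −1.72 and Cyp39a1 at −0.61 in atria lie past the line, and every ventricular point lies between −0.30 and 0.44.

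The ratios of the genotypes in atria and in ventricles share no array. Of 22 genes with an array at the floor in both chambers, 6 were positive in both, 9 negative in both and 7 of opposite sign, which makes 68.2% of the same sign beside 57.7% of all genes. None of the 22 was called in both chambers, where of 9436 genes 10 were higher in both and 24 lower in both. The ventricular minus the atrial log2 ratio was largest for Cyp2e1 (1.80), then Cyp1b1 (0.68), Cyp27a1 (0.63) and Cyp4v3 (0.51), and lowest for Gstt2 (−0.41). For Cyp2e1, Cyp1b1 and Cyp4v3 the ventricular arrays were below the floor. The difference between chambers was not tested.

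Values below the floor were read as a background for small ratios. In atria 78 of the 106 genes had both arrays below it, and 59 of these had positive ratios, with a median of 0.12 beside 0.13 over the 8731 genes, these included, with both atrial arrays below it. In ventricles 83 genes had both arrays below it, with a median of 0.00 beside 0.00. Past 1.5-fold among these dim pairs were Cyp2b10 (0.67) and Cyp2w1 (0.59) in atria and Cyp3a59 (−0.85) in ventricles. Over all genes with both arrays below the floor, the share past 1.5-fold was 2.90% of 8731 in atria and 1.14% of 9069 in ventricles.

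The chambers were then compared within each genotype. In wild type hearts, of 28 genes tested, 5 had at least 2-fold more signal in atria (Cyp1b1, Cyp2e1, Gstt1, Cyp2d22 and Cyp4v3) and 2 in ventricles (Gsto1 and Cyp4b1). Of all genes tested 6.1% were called, 3.89% higher in atria and 2.21% lower. The median log2 ratio (atria minus ventricles) was 0.21, beside −0.01 over 10034 genes. The share of positive values was 22 of 28, or 78.6%, beside 48.4% of all genes tested.

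In knockout atria against knockout ventricles 5 of 27 genes were called higher in atria (Gstt1, Cyp2d22, Cyp1b1, Cyp2s1 and Gstt2) and again Gsto1 and Cyp4b1 lower. The background was 6.3% called over 10120 genes, 3.46% higher and 2.85% lower. Positive values numbered 15 of 27, and the median of 0.03, beside −0.05 over all genes tested, turned to −0.07 under median centring. Under that centring 3 genes were called higher and 2 lower, and over all genes the share of calls that were higher went from 54.9% to 44.7%. The 2 chamber comparisons share no array. Each shares arrays with both genotype comparisons.

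**Figure D4:**
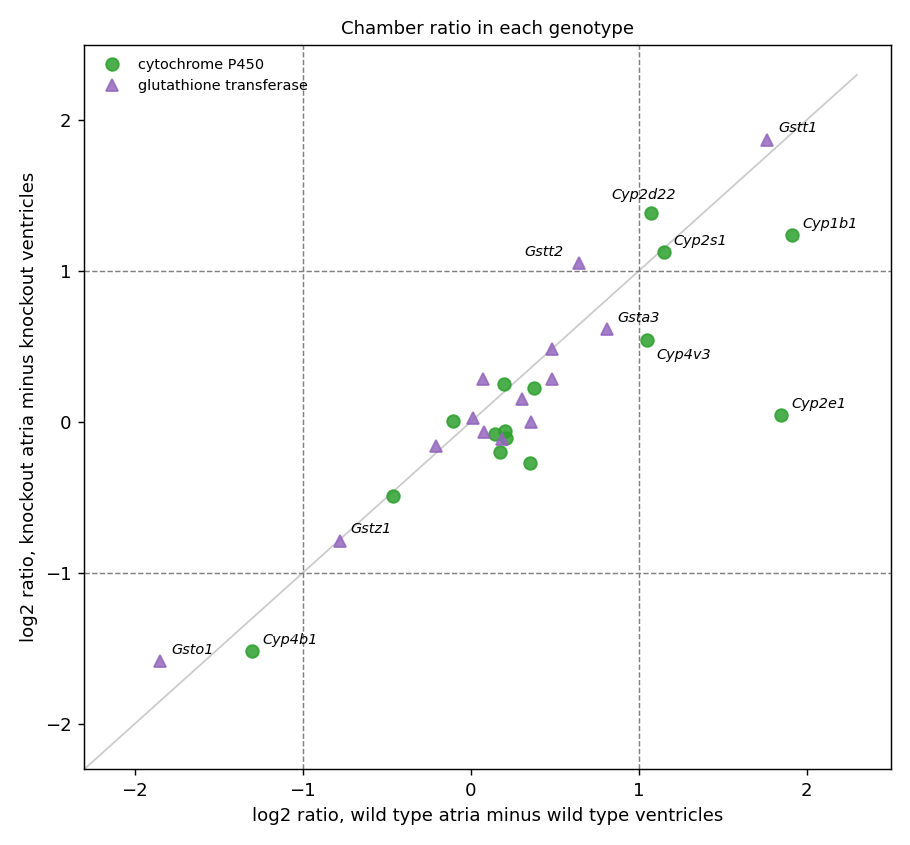
Log2 ratio of atria to ventricles in wild type (horizontal axis) and in Mef2a knockout hearts (vertical axis) for the 29 genes, with green circles for P450 and purple triangles for glutathione transferase genes. Dashed lines mark 2-fold and the grey line equal ratios. Gstt1, Cyp2d22, Cyp1b1 and Cyp2s1 lie past 2-fold in both genotypes at the upper right, and Gsto1 and Cyp4b1 at the lower left. Cyp2e1 lies at 1.85 in wild type and 0.05 in knockout hearts. Pairs with both arrays below the floor are not marked, among them Cyp2s1 in wild type and Cyp2e1 in knockout hearts.

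Genes called the same way in both genotypes numbered 3 higher in atria and 2 lower of 26 tested in both, and 0 were called in opposite ways. Over all genes 275 were higher and 158 lower in both, of 9828, and 0 opposite. The sign was the same in both genotypes for 69.2% of the 26 and for 79.1% of all genes. Gstt1, a theta-class transferase that acts on small halogenated compounds, stood at 8.37 in wild type and 8.27 in knockout atria, against 6.60 and 6.40 in the ventricular pools. Both atrial arrays were above both ventricular arrays. The chamber log2 ratio was 1.77 in wild type (3.40-fold) and 1.87 in knockout hearts (3.66-fold).

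The theta genes lie next to each other on chromosome 10, in the order Gstt3, Gstt1, Gstt4 and Gstt2 in the RefSeq gene table. Gstt2 was at 6.65 and 6.95 in wild type and knockout atria and at 6.01 and 5.90 in ventricles, with chamber ratios of 0.64 and 1.05. Gstt3 was at 5.75 and 5.79 in atria and at 5.27 and 5.31 in ventricles, with ratios of 0.49 and 0.48. All 3 were therefore higher in atria in both genotypes and under all scalings tried, and Gstt4, between them, was below the floor. The call of Gstt2 in knockout hearts was not made under median centring, where its ratio was 0.96, nor under the 75th percentile floor.

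The mu genes, also neighbours of each other, on chromosome 3, differed less. Their 5 genes above the floor had chamber ratios from −0.21 (Gstm7) to 0.48 (Gstm5) in wild type and from −0.16 to 0.29 in knockout hearts, and 0 were called. Gstm1 was nearly level on all arrays, with 9.92 in wild type atria, 9.86 in knockout atria, 9.91 in wild type ventricles and 9.83 in knockout ventricles. Gstp1 had ratios of 0.08 and 0.28. Of the alpha genes Gsta3 had 0.81 and 0.62, short of 2-fold, from 6.82 and 6.57 in atria to 6.01 and 5.95 in ventricles.

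Cyp1b1 encodes a hydroxylase of oestrogens, retinoids and polycyclic hydrocarbons found outside the liver. It was at 7.05 and 6.82 in wild type and knockout atria and at 5.14 and 5.58 in ventricles, with chamber ratios of 1.91 (3.76-fold) and 1.24 (2.36-fold). The ventricular arrays were below the floor, so neither call was made when both arrays had to reach it, nor under the 75th percentile floor of 7.27. Cyp2d22, often taken as the mouse counterpart of human CYP2D6, was at 8.80 and 9.01 in atria and at 7.72 and 7.63 in ventricles, with ratios of 1.08 and 1.38. Its neighbours of the Cyp2d cluster, among them Cyp2d11, Cyp2d10 and Cyp2d9, were below the floor. Cyp4v3 was at 6.43 and 5.93 in atria and 5.38 and 5.39 in ventricles, with ratios of 1.05 and 0.54, and under quantile normalization the first was 0.98, short of 2-fold. Neither its call nor that of Cyp2e1 between wild type chambers was made under the 75th percentile floor or where both arrays had to reach the floor. Cyp2s1 was higher in atria by 1.15 and 1.12, but its brightest array, knockout atria, was at the floor, and that call was not made under the 75th percentile floor or where both arrays had to reach the floor. It stayed past 2-fold under median centring and quantile normalization with ratios of 1.03 and 1.04, yet its brightest value was then below the recomputed floor, and under lowess centring its ratio was 0.98.

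The remaining P450 genes differed less between chambers. Cyp20a1, an orphan P450 gene, was at 7.41 and 7.33 in wild type and knockout atria and at 7.03 and 7.11 in ventricles, with chamber ratios of 0.38 and 0.22. Cyp2u1, a fatty acid hydroxylase gene, ran from 7.44 to 7.61 over the arrays, with ratios of −0.10 and 0.00. The leukotriene and fatty acid hydroxylase genes Cyp4f13 and Cyp4f16 had 0.20 each in wild type, and 0.25 and −0.06 in knockout hearts. By family, P450 genes had a median chamber ratio of 0.21 in wild type and 0.00 in knockout hearts, and transferase genes 0.25 and 0.09. Under median centring the P450 value in knockout hearts was −0.09.

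Gsto1 encodes the omega-class transferase, which reduces dehydroascorbate and methylated arsenic. It was at 7.03 and 7.15 in wild type and knockout atria and at 8.87 and 8.74 in ventricles. Both ventricular arrays were above both atrial arrays, with chamber log2 ratios of −1.85 in wild type (3.60-fold) and −1.58 in knockout hearts. Its neighbour Gsto2 was below the floor. For Cyp4b1 the chamber ratios were −1.30 in wild type and −1.52 in knockout hearts, or 2.46-fold and 2.86-fold higher in ventricles. Its neighbours Cyp4a32, Cyp4a31, Cyp4a10 and Cyp4a14 were below the floor. Gstz1, the zeta enzyme of tyrosine breakdown, had −0.78 and −0.79, from 6.76 and 6.67 in atria to 7.54 and 7.45 in ventricles. By the same likeness measure the genes nearest to Cyp4b1, which had the largest ventricular genotype ratio among pairs with an array at the floor, were Gsto1 (0.243), Gstz1 (0.370) and Cyp26b1 (0.488).

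Markers of other cells also differed between the chambers. Of 9 epicardial and mesothelial markers, 6 were at least 2-fold higher in atria in wild type and 7 in knockout hearts, with a mean log2 intensity of 7.15 in wild type atria, 7.24 in knockout atria, 5.42 in wild type ventricles and 5.54 in knockout ventricles and a log2 summed intensity of 10.72, 10.72, 8.73 and 8.87. Of 8 fibroblast markers 3 were past 2-fold in wild type and 1 in knockout hearts, all of them higher in atria. The 8 endothelial markers had mean values of 9.25, 9.23, 9.46 and 9.46 in the same array order, and log2 summed values of 12.53, 12.45, 12.94 and 12.93, with 0 called in wild type and 1 lower in knockout atria. The markers of airway club cells and lung, among them Scgb1a1 and Sftpc, and those of steroid glands, among them Star and Nr5a1, were below the floor on every array. The part of other cell types in the chamber ratios was not tested.

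Genes that work with these enzymes were read from lists. Of 13 listed P450 redox partner and haem genes 10 had a named probe set. The P450 reductase gene Por and the ferredoxin reductase gene Fdxr were not among them, so neither was read. All 10 reached the floor, and 0 were called in any of the 4 comparisons. They include the cytochrome b5 genes, the ferredoxin gene Fdx1 and the haem genes Hmox1, Hmox2 and Alas1. The largest sizes between genotypes were Cyb5b (−0.33) and Pgrmc1 (−0.30) in atria. Nuclear receptors and other sensors of foreign compounds, 13 above the floor, had 0 called between genotypes, with medians of 0.00 in both chambers. The aryl hydrocarbon receptor gene Ahr was at 0.11 and −0.07, and the NRF2 gene Nfe2l2 at −0.18 and 0.00. Between chambers the vitamin D receptor gene Vdr was higher in atria by 1.65 in wild type and 1.60 in knockout hearts, and the retinoid X receptor gene Rxrg higher in ventricles, at −1.07 and −1.06.

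Glutathione synthesis and recycling genes had 0 of 18 called in atria and 0 of 16 in ventricles between genotypes, with medians of 0.05 and 0.09. The extracellular peroxidase gene Gpx3 was higher in atria than in ventricles by 2.14 and 1.91, and Chac2 was called lower in knockout atria than knockout ventricles (−1.15). Among other oxidation and conjugation enzymes, the aldehyde oxidase gene Aox3 was called lower in knockout atria (−1.08), from 6.31 in wild type to 5.24 in knockout atria, with 3.88 and 3.80 in the ventricular pools. In ventricles the aldo-keto reductase genes Akr1b8 and Akr1c14 were called in opposite directions, at 0.83 and −0.91. In wild type hearts Aox3 (2.43) and Akr1b8 (1.38) were called higher in atria and Akr1c14 lower (−1.24). The quinone reductase gene Nqo1 was higher in ventricles than in atria, at −1.66 in wild type and −2.34 in knockout hearts.

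The epoxides made by CYP2 enzymes from arachidonic acid are opened by soluble epoxide hydrolase, encoded by Ephx2. It was higher in ventricles, with chamber ratios of −1.01 and −1.43, and had genotype ratios of −0.33 in atria and 0.09 in ventricles. Of the other arachidonic acid genes the cyclooxygenase gene Ptgs2 was called lower in knockout atria (−0.63) and Ptgds, a prostaglandin D synthase gene, higher (1.58). Between chambers the phospholipase gene Pla2g4a, Ptgs2 and the prostacyclin synthase gene Ptgis were called higher in atria in both genotypes, and Pla2g5 in knockout hearts (1.38). Ptgds was called lower in atria in wild type hearts, at −1.88, with −0.55 in knockout hearts. Retinoid genes had 0 called between genotypes, of 9 tested in each chamber, with Aldh1a1 (−0.37) and Stra6 (0.36) the largest sizes in atria. The retinoic acid synthesis gene Aldh1a2 was called higher in wild type atria than ventricles (1.26). The membrane-bound transferase gene Mgst1, outside the name rule, was at −0.52 in atria and 0.24 in ventricles. Of sterol and steroid genes outside the rule, 0 of 8 were called between genotypes in either chamber, and Msmo1 was at −0.57 and −0.26. Between chambers the steroid reductase family gene Srd5a3 was higher in atria by 1.10 and 1.05, and the squalene synthase gene Fdft1 was called lower in wild type atria (−1.05).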

How the data were processed

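Total RNA of dissected atria and ventricles was measured in 4 groups with 1 array each, each a pool of 7 mice. The authors deposited log2 intensities, 1 per probe set, made with RMA and the affy package per the submitters' processing notes. Versions, the array design, probe set definitions and the genome build are not given in the sources used here. RMA corrects background, evens out arrays and summarises probes, and compresses differences between dim values. The deposited columns did not share 1 distribution, and the reason was not tested.

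Of 21212 probe sets 18786 had 1 symbol in the platform annotation, 6 had several and 2420 had no entry. The RefSeq gene table of GRCm38.p6 updated these symbols: 18775 matched on the gene number and 6 on an accession, and 5 kept the annotated name. The brightest probe set by mean was kept per symbol, which left 18781 genes. Each comparison is a difference of 2 log2 values, computed in Python 3.11.15 with pandas 2.3.3, and fold thresholds, floor and lists are as given in the text. No replicates exist, so no test was run. A model with genotype and chamber terms was not run, since its sole residual degree of freedom measures how the genotype difference varies with chamber. The alternatives were 3 other scalings, 3 other floors, other folds and the platform's own symbols. Counting was tested on simulated data first, with shifts well past the fold lines in genes well above the floor. That does not bear on calls near the fold line or the floor, such as that of Cyp39a1. The genes, lists and thresholds were chosen with earlier results of these data known. Named were all genes of the set that reached the floor or were summarised by family, and from each pathway list up to 4 genes past the fold per direction, otherwise those with the largest sizes. Marker lists are summarised, with genes named after their values were seen. Protein sequences were not used here.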

Additional observations from a re-analysis of the deposited data

Results flagged for a closer look

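Cyp27a1, the sterol 27-hydroxylase gene, had opposite signs in the chambers. Its log2 ratio of knockout to wild type was −0.34 in atria, from 7.79 to 7.44, and 0.28 in ventricles, from 7.43 to 7.72, a difference of 0.63. Both sizes exceed 1.2-fold and neither reaches 1.5-fold. The difference between chambers was not tested, and with 1 array per group there is no spread to set it against.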

How the results depend on the processing

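Labels give no replicate numbers to pair, and a fit of genotype with chamber as a block was not run. Of the counts of called genes and the medians, 83 values kept their sign and stayed within 1.5 times (counts) or 0.1 (medians) of the reported ones under the alternatives and 25 moved. Among single ratios 840 kept their sign and their side of the fold threshold, 35 lost the call, 16 gained it and 11 ratios that were not called changed sign. No called ratio changed sign. Other floors and folds leave each single ratio as it is, so there only its call could change. Other folds leave the medians as they are too, and the platform's own symbols gave the same counts and medians. The totals kept therefore include settings under which a sign could not change. Median centring gave 3 of 26 genes called higher in knockout atria than ventricles, with a median of −0.073. Over all genes tested 305 of 10109 were called so. Quantile normalization left 1 gene lower in knockout atria (Cyp2e1), as did lowess centring, under which the median of the chamber ratios in knockout hearts was 0.17. Over all genes tested, 200 of 9971 were lower in knockout atria under quantile normalization and 206 of 10050 under lowess centring. Without a floor 2 of 106 genes were higher in knockout atria with a median of 0.081, 1 was lower in knockout ventricles, and the wild type chamber median was 0.0067. Over all 18781 genes 289 were then higher in knockout atria and 121 lower in knockout ventricles. Their medians were 0.043 between the atrial pools and −0.025 between wild type chambers. A floor at the 75th percentile left 1 gene lower in knockout atria (Cyp39a1) and 2 higher in atria in each genotype, with a ventricular genotype median of 0.016. Over all genes it left 80 of 5060 lower in knockout atria. Higher in atria than in ventricles were 253 of 5351 in wild type and 219 of 5295 in knockout hearts. With both arrays at the floor, 1 gene was lower in knockout atria, and 2 in wild type and 3 in knockout hearts were higher in atria. Among all genes 130 of 9376 were then lower in knockout atria. Higher in atria were 229 of 9193 in wild type and 201 of 9131 in knockout hearts. Folds of 1.2 and 1.5 gave 1 gene higher and 8 lower of 28 in knockout atria, and 3 higher and 1 lower of 23 in knockout ventricles. Over all genes tested, 873 were higher and 1520 lower of 10050 in knockout atria. In knockout ventricles 394 were higher and 426 lower of 9712. Folds of 2 and 4 left 1 lower in knockout atria and 0 higher and 0 lower between chambers in wild type, and 0 and 0 in knockout hearts. Over all genes 48 of 10050 were lower in knockout atria. Between chambers 92 were higher and 28 lower of 10034 in wild type, and 87 and 28 of 10120 in knockout hearts. Cyp2e1 in atria and Cyp2d22, Gstt1, Cyp1b1, Gsto1 and Cyp4b1 between chambers were called under all scalings tried. The cause of each change was not tested beyond the setting itself.

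Signal over background is unknown, since no detection calls were used here, and 77 of the 106 genes lay below the floor, where ratios are least reliable.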
